A study of Mus musculus with 8 samples.

Results

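The kinesin genes are the genes of the microtubule motors that bear the kinesin head, here every protein-coding gene of the table with a Kif symbol of the usual form, together with Kifc1, Kifc2 and Kifc3 and the kinesin light chain genes Klc1, Klc2, Klc3 and Klc4. The annotation holds 46 such genes, and 43 of them were among the 17127 genes with values, of which 13785 are protein coding. Kif12, Kif19b and Kif28 were not analysed here. RNA-seq was done on whole adult testes from mice of 4 months, of genotype WT or homozygous for a mutation in Iqch (Iqch-/-, called Iqch mutant from here on), 1 testis library per sample. The mutation is a small Cas9 deletion in exon 19 of Iqch, made in B6CBAF1 embryos, and the study kept 2 deletion lines. The study shows its RNA-seq reads at Iqch as data of the Iqchmu7 line, while the labels give no line for a library and name no other allele or treatment for either group. The libraries analysed were wild type 1 to 4 and mutants 1, 2 and 4, and mutant 3 is not analysed here. The values are CPM, the reads of a gene scaled to the same total in every library.

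Kinesins use ATP to walk along microtubules, most of them towards the plus end. Some move chromosomes, slide spindle microtubules apart or shape the midbody during division, others carry vesicles, organelles and mRNA, and a few shorten microtubules instead of walking. In the testis they serve the spindles of spermatogonia and spermatocytes, and later the manchette, the growing flagellum and the transport of material in spermatids. The genes were therefore described in 4 groups by role. There were 13 spindle and cytokinesis kinesins, 19 cargo transport kinesins and light chains, 6 kinesins known from spermatids or from the axoneme of flagella and motile cilia, and 5 kinesins of the primary cilium, of signalling or of other roles.

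If the smallest step of the CPM values in a library is taken as 1 read, the wild-type libraries held 32859673 to 37551057 reads and the mutant libraries 32064384 to 34806129. Iqch RNA was at 193 to 217 CPM in the 4 wild-type libraries and at 64.8 to 69.2 CPM in the 3 mutant libraries, so that the targeted gene followed the labels. No kinesin gene was at 0 in any library, and the lowest value was 1.47 CPM (Kif26b in a mutant). Genes were tested with limma on log2(CPM + 0.1) over the 17126 genes that reached 2.2 CPM in 2 libraries of the same genotype, and all 43 kinesin genes passed this minimum. A gene was called at an adjusted p (FDR, Benjamini-Hochberg over all genes) below 0.01. Fold changes are on this log2 scale, mutant over wild type, where the added 0.1 makes the change of a low gene look slightly smaller. A CPM value given with ± is a mean with its SD (n = 4 for the wild type and 3 for the mutant). Nothing in the labels ties the samples to separate litters or batches, so the p-values measure the spread between these libraries only.

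On the deposited CPM all genes together had a median change of 0.12 (log2), and division by median-of-ratios size factors brought it to -0.01. Against that shift, 19 of 43 kinesin genes (44.2%) were called by limma, beside 50.4% of all genes tested. Kinesin genes are all protein coding, and of the 13784 protein-coding genes tested 54.2% were called (5723 higher and 1752 lower). Iqch mutant testes held more RNA of 12 and less of 7 kinesin genes, beside 36.3% of all genes higher and 14.2% lower. With size factors 26 were called, 9 of them higher and 17 lower, beside 52.1% of all genes (27.0% higher and 25.1% lower). Of the earlier calls 9 of 12 higher and 7 of 7 lower ones were among these, and no kinesin gene was called in opposite directions. The split between higher and lower calls thus rests on the scaling, and calls that were lost or gained with it are named below. A call with an absolute change of 0.5 or more was made for 6 kinesin genes on the higher and 1 on the lower side, beside 23.2% and 4.43% of all genes. The median log2 fold change of the 43 genes was 0.04, which was 0.08 below that of all genes. The median of the protein-coding genes was 0.18.

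Most genes called higher were cargo transport genes. Of the 19 cargo transport genes, 11 were called higher and 1 lower, beside 36.3% and 14.2% of all genes. With size factors 8 were called higher and 2 lower, beside 27.0% and 25.1% of all genes. Kif1c and Kif3c changed more than any other kinesin gene. The same shares of all genes stand beside the counts of the other groups. No spermatid or flagellar kinesin was called higher, and 4 of 6 were called lower (5 with size factors). Of the 13 spindle and cytokinesis kinesins only Kif11 and Kif2c were called, in opposite directions. With size factors 1 of them was called higher and 6 lower. The medians of the log2 fold changes were 0.22 for cargo transport genes, -0.22 for spermatid and flagellar kinesins and 0.01 for spindle and cytokinesis kinesins. The median was -0.28 for the remaining 5 genes, beside 0.12 for all genes and 0.18 for protein-coding genes. In a whole testis, fewer cells of a type and less RNA per cell cannot be told apart.

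**Figure D1:**
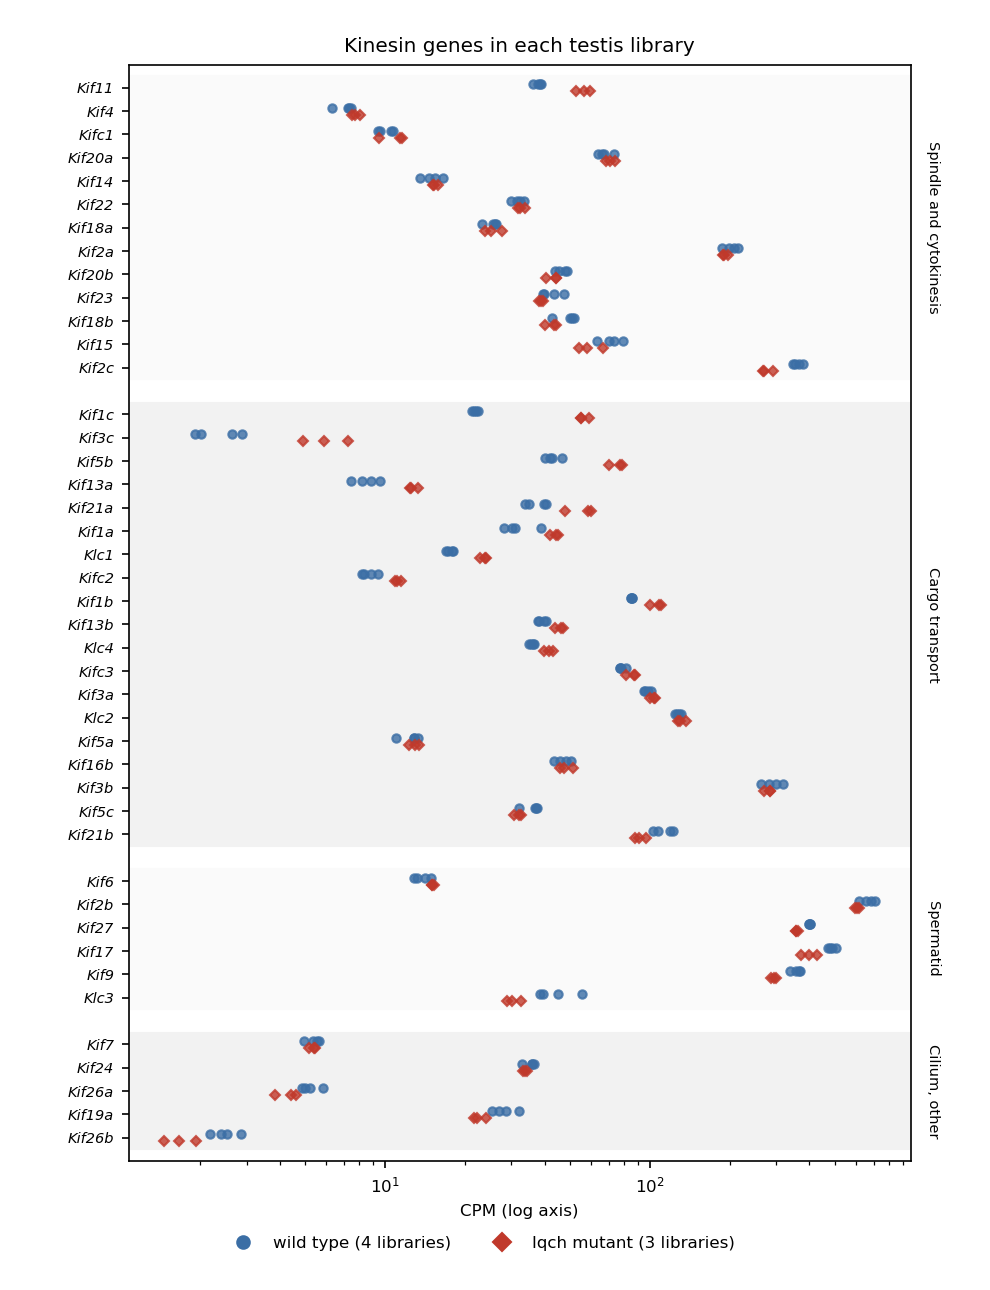
Level of each of the 43 kinesin genes in CPM (log axis) in each of the 4 wild-type libraries (blue circles) and 3 Iqch mutant libraries (red diamonds), by role and ordered by fold change within a role. The groups of points are apart with mutants higher in 15 genes, among them Kif1c, Kif3c, Kif5b and Kif11. They are apart with mutants lower in 9 genes, among them Kif2c, Kif9, Kif17, Kif27 and Klc3. Of all genes tested, 42.8% had all mutants higher and 19.5% all mutants lower. The points lie on each other for most spindle kinesins.

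The motors of general transport were the kinesins with the largest changes. Kif1c (ENSMUSG00000020821, chromosome 11 from 70591046 to 70622790 in GRCm39) encodes a motor of long-range vesicle transport and was at 21.7, 22.02, 21.2 and 22.4 CPM in wild type 1 to 4 and at 58.8, 54.9 and 55.1 CPM in mutants 1, 2 and 4. Every mutant library thus held more than every wild-type library, with little spread in either group. The change was 1.36 (standard error, SE, 0.05, limma FDR 1.6e-09), or 2.57-fold. Its close relatives moved less. Kif1b, which carries mitochondria and synaptic vesicle precursors, rose from 85.4 ± 0.448 to 106 ± 5.597 CPM (0.31, standard error 0.05, limma FDR 7.8e-05). Kif1a, known from synaptic vesicle transport in neurons, rose from 32.0 ± 4.66 to 43.8 ± 1.59 CPM (0.46, standard error 0.09, limma FDR 7.4e-04), and wild type 4 (38.7 CPM) lay apart from wild type 1 to 3 (28.1 to 31.0 CPM).

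The share of each gene in its subfamily does not depend on the scaling between libraries. In CPM per kb of exons, Kif1c made up 28.6% to 30.6% of the Kif1 genes in wild-type libraries and 44.5% to 47.2% in mutant libraries. Kif1b went from 35.1% to 39.8% down to 27.0% to 28.8%, although its own CPM was higher in each mutant. The groups of libraries did not overlap for any of the 3 genes. These shares are given as a description, with no test.

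Conventional kinesin consists of a KIF5 heavy chain, the motor, and light chains that bind cargo. Kif5b (ENSMUSG00000006740), the heavy chain that most tissues use, was at 42.0, 42.8, 46.7 and 40.3 CPM in wild-type and at 70.2, 78.5 and 77.4 CPM in mutant libraries, with no overlap. Its change was 0.81 (standard error 0.06, limma FDR 2.4e-07). The other heavy chains, Kif5a and Kif5c, are best known from neurons, and neither was called. Kif5a was at 12.5 ± 1.016 and 12.9 ± 0.567 CPM. Kif5c was at 35.8 ± 2.52 and 31.8 ± 0.984 CPM with a change of -0.17 (standard error 0.07, limma FDR 0.036), and with size factors it was called lower at -0.31. It was also called without wild type 1, whose 32.1 CPM lay below wild type 2 to 4 (36.8 to 37.5 CPM), at -0.22 (limma FDR 0.0060). Per kb of exons, Kif5b made up 45.4% to 49.1% of the Kif5 genes in wild-type and 62.8% to 64.0% in mutant libraries, and Kif5c 33.9% to 38.3% and 23.9% to 24.8%.

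Among the light chains, Klc3 was called lower, Klc1 higher and Klc2 not at all. Klc3 (ENSMUSG00000040714, chromosome 7 from 19126644 to 19138055) is the light chain of spermatids, where it binds the outer dense fibres and mitochondria of the midpiece. It was at 39.6, 45.03, 38.4 and 55.4 CPM in wild type 1 to 4 and at 28.8, 32.7 and 30.04 CPM in mutants 1, 2 and 4. All mutants lay below all wild-type libraries, and wild type 4 was highest. The change was -0.53 (standard error 0.11, limma FDR 7.8e-04), and it stayed between -0.60 and -0.43 whichever library was left out. Klc1, the widely used light chain, rose from 17.6 ± 0.507 to 23.6 ± 0.613 CPM (0.42, standard error 0.06, limma FDR 7.1e-05). Klc2, the most abundant of the 4 per kb, was at 129, 124, 130.5 and 127 CPM in wild-type and at 137, 130.1 and 128 CPM in mutant libraries, and these ranges overlapped (0.05, standard error 0.04, limma FDR 0.34). Klc4 was called higher on the deposited CPM (0.21, standard error 0.05, limma FDR 0.0039) but not after scaling (0.07, limma FDR 0.25), nor without wild type 2 (0.21, limma FDR 0.012), mutant 1 (0.18, limma FDR 0.022) or mutant 4 (0.21, limma FDR 0.017). Klc3 made up 17.2% to 23.5% of the light chain genes per kb in wild-type and 12.5% to 14.6% in mutant libraries.

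**Figure D2:**
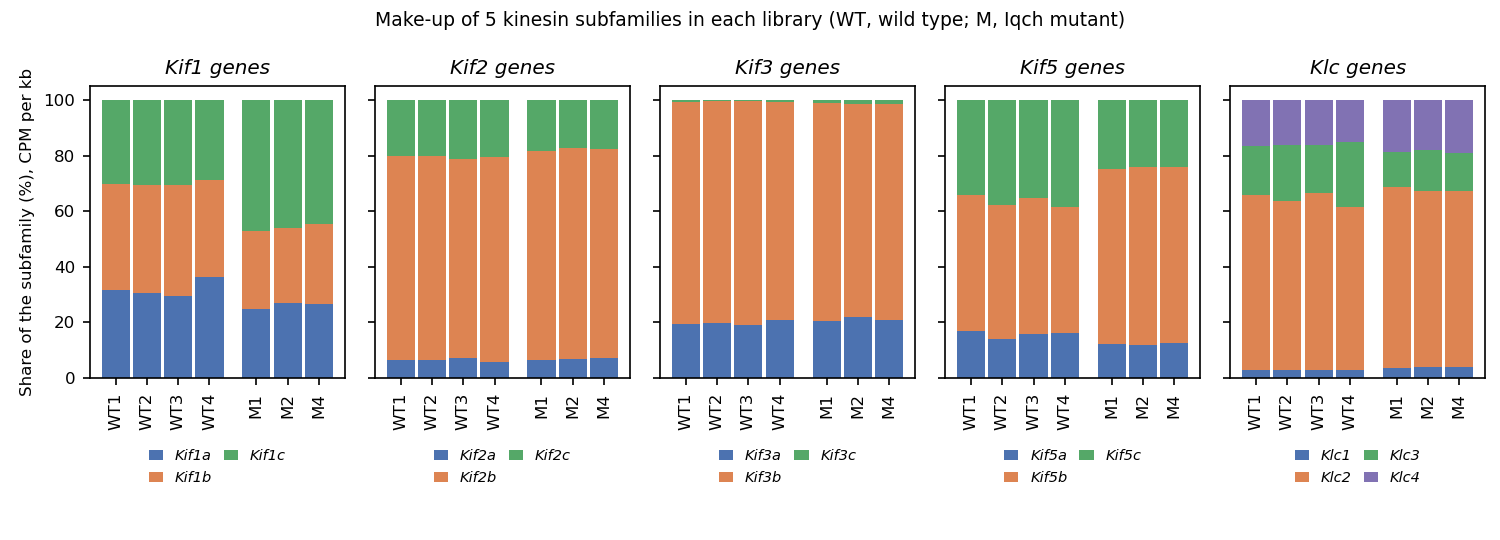
Share of each gene (%, stacked, from CPM per kb of exons) in the Kif1, Kif2, Kif3, Kif5 and Klc subfamilies in each library, wild type 1 to 4 on the left and Iqch mutants 1, 2 and 4 on the right of each panel. Kif1c and Kif5b take a larger share in the mutants, Kif5c and Klc3 a smaller share, and Kif3b stays the main Kif3 gene in all 7 libraries.

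The heterotrimeric KIF3 motor of intraflagellar transport joins KIF3A, KIF3B and the adaptor KAP, encoded by Kifap3. Kif3b (ENSMUSG00000027475) was at 299.6, 282, 317 and 263 CPM in wild-type and at 284, 269.7 and 284 CPM in mutant libraries. Kif3a (ENSMUSG00000018395) was at 98.2, 94.8, 101 and 96.1 CPM and at 99.95, 105 and 104 CPM. In both genes the libraries of the groups overlapped and no change was called, at -0.05 (standard error 0.06, limma FDR 0.43) and 0.08 (SE 0.04, FDR 0.14). Kifap3 fell from 331 ± 13.7 to 271 ± 4.28 CPM (-0.29, standard error 0.04, limma FDR 6.2e-05). Kif3c (ENSMUSG00000020668, chromosome 12 from 3400262 to 3456494), whose product can take the place of KIF3B beside KIF3A, was the lowest of the cargo genes per kb. It was at 2.87, 1.92, 2.01 and 2.64 CPM in wild-type and at 4.91, 5.86 and 7.25 CPM in mutant libraries. All mutants were higher, with a change of 1.31 (standard error 0.18, limma FDR 3.5e-05). It nevertheless made up 1.01% to 1.48% of the Kif3 genes per kb in the mutants, against 0.381% to 0.585% in the wild type.

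Among the remaining transport kinesins, Kif13a (ENSMUSG00000021375), which moves endosomal and mannose 6-phosphate receptor cargo, was at 9.57, 8.16, 7.43 and 8.87 CPM in wild-type and at 12.5, 12.4 and 13.3 CPM in mutant libraries. Kif21a (ENSMUSG00000022629), which restrains microtubule growth at the cell cortex, was at 40.5, 35.04, 39.7 and 33.9 CPM and at 47.9, 59.8 and 58.6 CPM. Neither gene overlapped between groups, and the changes were 0.58 (standard error 0.10, limma FDR 2.0e-04) and 0.57 (SE 0.09, FDR 9.5e-05). The paralogue of the latter, Kif21b, was the single cargo transport gene called lower on the deposited CPM, from 113 ± 9.54 to 91.8 ± 4.70 CPM (-0.29, standard error 0.06, limma FDR 0.0015). Kif13b and Kifc2 were called higher on the deposited CPM, at 0.22 (standard error 0.05, limma FDR 0.0028) and 0.36 (SE 0.08, FDR 0.0028), and were lost with size factors, at 0.09 and 0.22. Kif13b was not called without wild type 2, mutant 2 or mutant 4 (limma FDR 0.011, 0.012 and 0.019), and Kifc2 not without mutant 4 (limma FDR 0.015). Kif16b, an endosomal motor, and Kifc3, a minus-end motor of cell junctions, were not called, at 0.03 and 0.13.

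**Figure D3:**
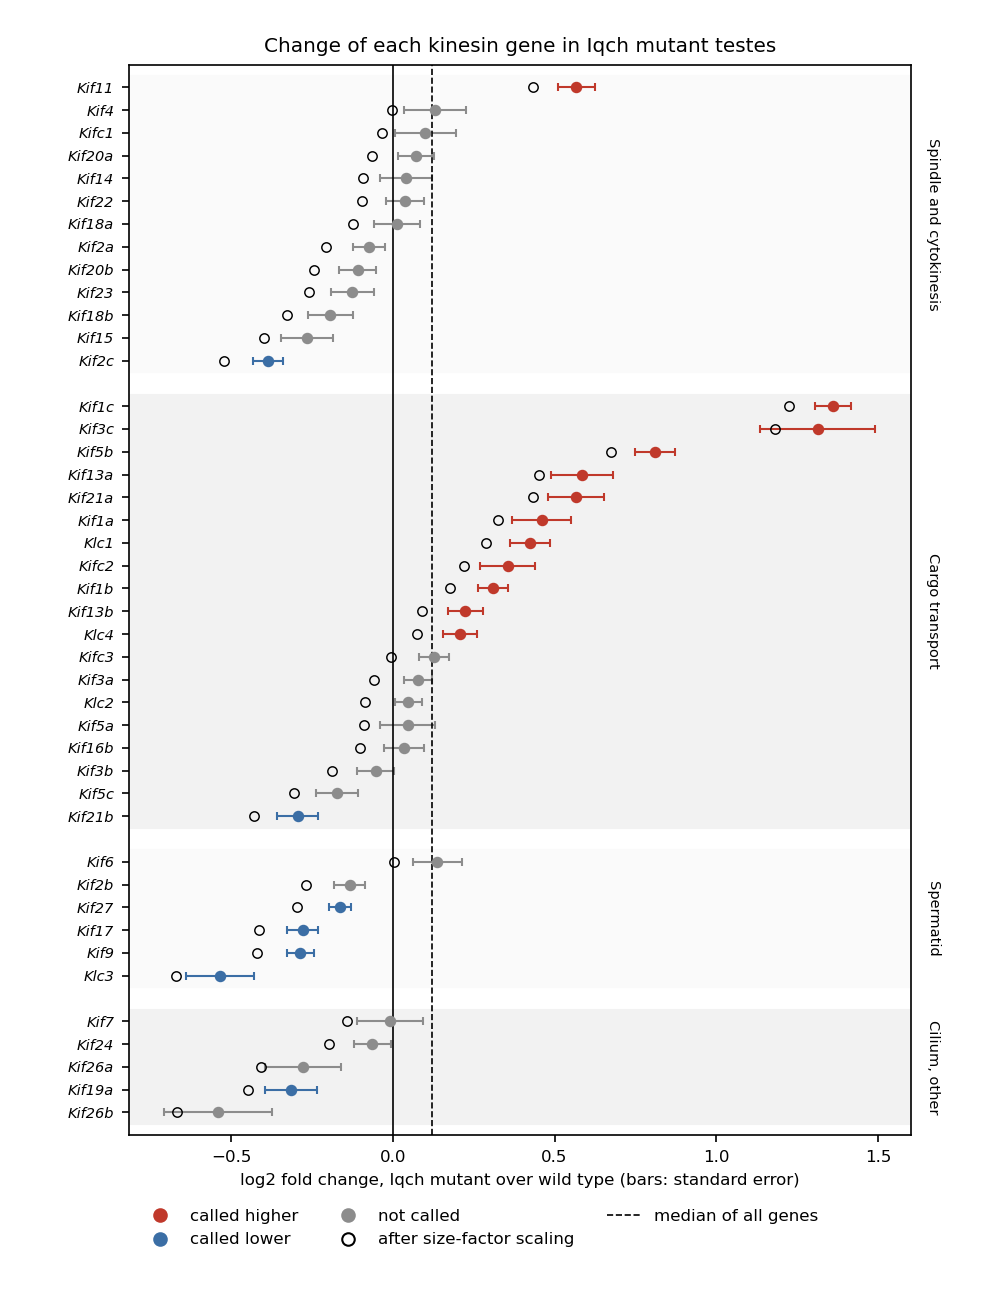
Log2 fold change of each of the 43 kinesin genes in Iqch mutant over wild-type testes with its standard error (filled points, red for called higher, blue for called lower and grey for not called at limma FDR 0.01, n = 4 and 3), and the value after scaling by size factors (open circles). The dashed line is the median of all genes at 0.12. The cargo genes reach 1.36, and no spermatid or flagellar kinesin lies to the right of 0.14.

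The kinesins known from spermatids and flagella held the most abundant member of the family. Kif2b (ENSMUSG00000046755, chromosome 11 from 91466141 to 91468384), a microtubule depolymerase related to Kif2c, was at 656, 682, 614 and 709 CPM in wild-type and at 618, 607 and 593 CPM in mutant libraries. Mutant 1 lay above wild type 3, so the groups overlapped, and the change of -0.13 (standard error 0.05, limma FDR 0.027) was not called. Kif2b was called lower after scaling (-0.27, limma FDR 5.8e-04) and without wild type 3 (-0.17, limma FDR 0.0034). With 296 CPM per kb in the wild type it stood above Kif2c, the next member of the family, at 82.8 CPM per kb.

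Kif17 (ENSMUSG00000028758, chromosome 4 from 137977746 to 138031605) encodes a motor of cilia whose testis form carries the transcriptional coactivator ACT, the product of Fhl5, in spermatids. It was at 502, 479, 469 and 488 CPM in wild-type and at 428, 372 and 400.3 CPM in mutant libraries. Every mutant was lower, and the change was -0.28 (standard error 0.05, limma FDR 2.6e-04). Kif9 (ENSMUSG00000032489, chromosome 9 from 110305569 to 110355804), a kinesin of the central apparatus of the sperm axoneme, was at 364, 369, 357 and 338 CPM and at 298, 286 and 294 CPM. It also fell in every mutant, by 0.29 (standard error 0.04, limma FDR 6.0e-05). Kif27, a paralogue of Kif7 that acts in motile cilia, varied little between libraries and went from 401 ± 3.00 to 359 ± 2.54 CPM (-0.16, standard error 0.03, limma FDR 0.0011). Kif6, which like Kif9 belongs to motile cilia, was at 13.8 ± 0.925 and 15.1 ± 0.178 CPM and was not called (0.14, standard error 0.08, limma FDR 0.13).

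The summed CPM of the 6 genes was 1897 to 2009 in wild-type and 1670 to 1749 in mutant libraries. All 4 genes called lower stayed called lower after scaling and without any single library. Markers of spermatids moved beside them. Among all genes 36.3% were called higher and 14.2% lower. Of 7 round spermatid markers 5 were called lower and none higher, and their summed level was 1529 to 1708 CPM in wild-type and 1313 to 1432 CPM in mutant libraries. All 7 elongating spermatid markers were called lower, with sums of 21462 to 22709 and 13598 to 15665 CPM. The median log2 fold changes of these lists were -0.22 and -0.61, so that the median of the spermatid kinesins (-0.22) was nearer to that of the round spermatid markers. No marker of either list was at 0 in any library, and their part in the result was not tested.

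For the division kinesins, promoters are shown because genes of the late cell cycle share the cell cycle homology region (CHR), with the letters TTTGAA. The letters were searched on both strands in the 300 bases from 250 before to 50 after the canonical transcript start in GRCm39 (GENCODE M39). They were found in 7 of 13 spindle and cytokinesis kinesins (53.8%), in 9 of the 43 kinesin genes (20.9%) and in 1907 of the 13785 protein-coding promoters (13.8%). Of the 7 genes, the windows of 5 are printed, each of 30 bases on the strand of the gene with the CHR letters, or their reverse complement TTCAAA, in capitals.
Kif11 at chr19:37364799-37364828, plus strand: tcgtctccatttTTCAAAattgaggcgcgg
Kif15 at chr9:122780115-122780144, plus strand: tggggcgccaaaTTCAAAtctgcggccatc
Kif18b at chr11:102815930-102815959, minus strand: cggaccggctagTTTGAAcgcgccgcgccg
Kif20b at chr19:34899753-34899782, plus strand: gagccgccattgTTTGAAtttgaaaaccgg
Kif23 at chr9:61854062-61854091, minus strand: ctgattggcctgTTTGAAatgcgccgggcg

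In the printed windows, which were chosen from those near the transcript start, the letters began between 6 bases before it in Kif23 and base 17 after it in Kif15. The Kif20b promoter holds them again in the same window, in lower case, and that of Kif15 again 199 bases before the start. In Kif22, not printed, they began 164 bases before and at base 35 after the start. Of the other letters searched, CCAAT was in 46.2% of spindle kinesin promoters and 39.4% of all, TGACG, the core of the cAMP response element, in 46.2% and 28.0%, and GTTGCCA, an RFX site, in 15.4% and 4.64%. The CHR variant TTCGAA was in no spindle kinesin promoter and in 2.26% of all. No string contains another, and a match describes letters only. In the 6 spermatid and flagellar kinesins TTTGAA and GTTGCCA were not found, and TGACG was found in Kif2b, Kif9 and Kif17. Of the 7 spindle kinesins that hold them, Kif11 was called higher and none lower on the deposited CPM, and after scaling 1 was called higher and 4 lower. Of the 6 without them none was called higher and 1 lower, and after scaling none higher and 2 lower. The shares of all genes were 36.3% higher and 14.2% lower, and 27.0% and 25.1% after scaling.

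Kif11 (ENSMUSG00000012443, chromosome 19 from 37364799 to 37410307) encodes the motor that pushes spindle poles apart. It was at 37.8, 36.2, 38.5 and 38.7 CPM in wild-type and at 52.5, 59.6 and 56.3 CPM in mutant libraries. Every mutant was higher, the change was 0.57 (standard error 0.06, limma FDR 2.5e-06), and after scaling it was 0.43 (limma FDR 1.8e-05). Kif2c (ENSMUSG00000028678, chromosome 4 from 117016830 to 117039836), a depolymerase that corrects attachments at kinetochores and the most abundant spindle kinesin per kb, was at 348, 366, 353 and 379 CPM in wild-type and at 293, 268 and 269.6 CPM in mutant libraries. It fell in every mutant, by 0.39 (standard error 0.05, limma FDR 1.1e-05). Kif2a (ENSMUSG00000021693), a paralogue of Kif2c that acts at spindle poles and in neurons, was at 198, 207, 215 and 187 CPM and at 188, 190.5 and 197 CPM, with overlap and no call (-0.07, standard error 0.05, limma FDR 0.22).

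None of the motors of the midbody and central spindle was called on the deposited CPM. Kif20a (ENSMUSG00000003779), which brings the chromosomal passenger complex to the midzone, was at 67.3, 65.8, 73.04 and 63.5 CPM in wild-type and at 70.4, 73.9 and 68.03 CPM in mutant libraries. These overlapped, with a change of 0.07 (standard error 0.06, limma FDR 0.28). Kif23, the motor of centralspindlin, was at 42.4 ± 3.67 and 38.8 ± 0.778 CPM (-0.13, standard error 0.07, limma FDR 0.12), and Kif20b at 46.3 ± 2.27 and 43.0 ± 2.05 CPM (-0.11, standard error 0.06, limma FDR 0.12). Kif14 and Kif4, which act in cytokinesis and on mitotic chromosomes, were not called at 0.04 and 0.13. The value of Kif4 is uncertain, since reads may be shared with Kif4-ps, by its name a copy, at 23.5 ± 2.87 and 19.4 ± 1.13 CPM. The chromosome motors Kif18a and Kif22 were not called either, at 0.01 and 0.04.

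Kif15, which backs up Kif11 on the spindle, and Kif18b, which shortens astral microtubules, lay near the threshold. Kif15 was at 71.3 ± 6.64 and 59.4 ± 6.34 CPM (-0.26, standard error 0.08, limma FDR 0.012). It was called without wild type 1 (-0.32, limma FDR 0.0035) and without mutant 2 (-0.35, limma FDR 0.0033). Kif18b was at 48.8 ± 4.16 and 42.6 ± 2.199 CPM (-0.19, standard error 0.07, limma FDR 0.030), and it was called without wild type 4 (-0.26, limma FDR 0.0018). After scaling, 6 of the 13 genes were called lower, which were Kif2c, Kif15, Kif18b, Kif20b, Kif23 and Kif2a, and Kif11 was the only gene called higher. The summed level of the 13 genes was 944 to 991 CPM in wild-type and 869 to 875 CPM in mutant libraries, and Kif2c alone went from 361 ± 13.8 to 277 ± 14.0 CPM.

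Kifc1 (ENSMUSG00000079553), a minus-end motor that focuses spindle poles and also takes part in acrosome formation and nuclear shaping in spermatids, was low in this table, at 10.7, 9.55, 9.43 and 10.5 CPM in wild-type and at 9.51, 11.6 and 11.3 CPM in mutant libraries. The groups overlapped (0.10, standard error 0.10, limma FDR 0.38). Its value is uncertain, since reads can be shared with the near copies Kifc5b, at 12.9 ± 1.42 and 11.98 ± 0.675 CPM, and Kifc5c-ps.

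Partners of these motors were counted from fixed lists. Beside each count stand the shares of all genes, 36.3% higher and 14.2% lower, and 27.0% and 25.1% after scaling. Of 14 spindle and cytokinesis partners 1 was called higher and 2 lower, and with size factors none was higher and 7 were lower. The 2 lower genes were Plk1, a mitotic kinase, at 78.6 ± 7.77 and 65.7 ± 2.85 CPM (-0.25, standard error 0.07, limma FDR 0.0073), and Bub1b, a checkpoint kinase, at 74.7 ± 1.42 and 65.3 ± 3.24 CPM (-0.20, standard error 0.05, limma FDR 0.0036). Plk1 was called only with all libraries or without wild type 4 (its change ran from -0.31 to -0.20 as libraries were left out), and Bub1b was not called without mutant 2 (range -0.22 to -0.15). The higher gene, Numa1, a spindle pole protein (0.27, standard error 0.05, limma FDR 4.0e-04), was not called after scaling. Their median was -0.10. Markers of spermatocytes, the cells of meiotic division, were called once in each direction among 7 (none higher and 3 lower after scaling), and their summed level was 1256 to 1324 CPM in wild-type and 1177 to 1278 CPM in mutant libraries. Of 7 spermatogonial markers 4 were called higher, with sums of 112 to 124 and 166 to 193 CPM. The libraries of the groups overlapped for Zbtb16. The calls of Zbtb16, Dmrt1 and Uchl1 were each lost in several of the fits that left out 1 library. Much of the rise of the sum was Kit, which changed most, from 21.7 ± 2.49 to 62.2 ± 11.1 CPM (1.505). After scaling Kit alone was called. Their part in the changes of spindle kinesins was not tested.

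Of 17 kinesin adaptors and partners, 6 were called higher and 3 lower, beside 36.3% and 14.2% of all genes. All 9 stayed called after scaling, which added 3 lower calls, Plekhm2, Arl8b and Tbata. Fez2, a homologue of the kinesin adaptor Fez1, went from 9.70 ± 1.04 to 20.6 ± 2.32 CPM (1.08, standard error 0.10, limma FDR 1.5e-06). Kidins220, a membrane scaffold carried by Kif5, went from 47.9 ± 4.26 to 83.4 ± 2.56 CPM (0.80, standard error 0.07, limma FDR 5.1e-07). The other 4 that rose, named after their values were seen, were Arl8a, which links lysosomes to kinesin, Trak2 and Rhot2, which tie mitochondria to Kif5 motors, and Mapk8ip3, a light chain binding scaffold, at 0.41 to 0.71. Arl8a, Trak2 and Rhot2 were at means of 12.4, 11.7 and 14.9 CPM in the wild type. Their paralogues Arl8b, Trak1 and Rhot1 were more abundant there, at 106, 63.0 and 95.8 CPM. None of these paralogues was called on the deposited CPM (-0.08, 0.14 and 0.01). The 3 called lower on the deposited CPM were Kifap3, Fhl5 and Mapk8ip2. Fhl5, the cargo of Kif17 in spermatids, was at 228 ± 25.1 and 185 ± 3.11 CPM (-0.30, standard error 0.07, limma FDR 0.0024), and it was not called without mutant 4 (range -0.35 to -0.24).

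**Figure D4:**
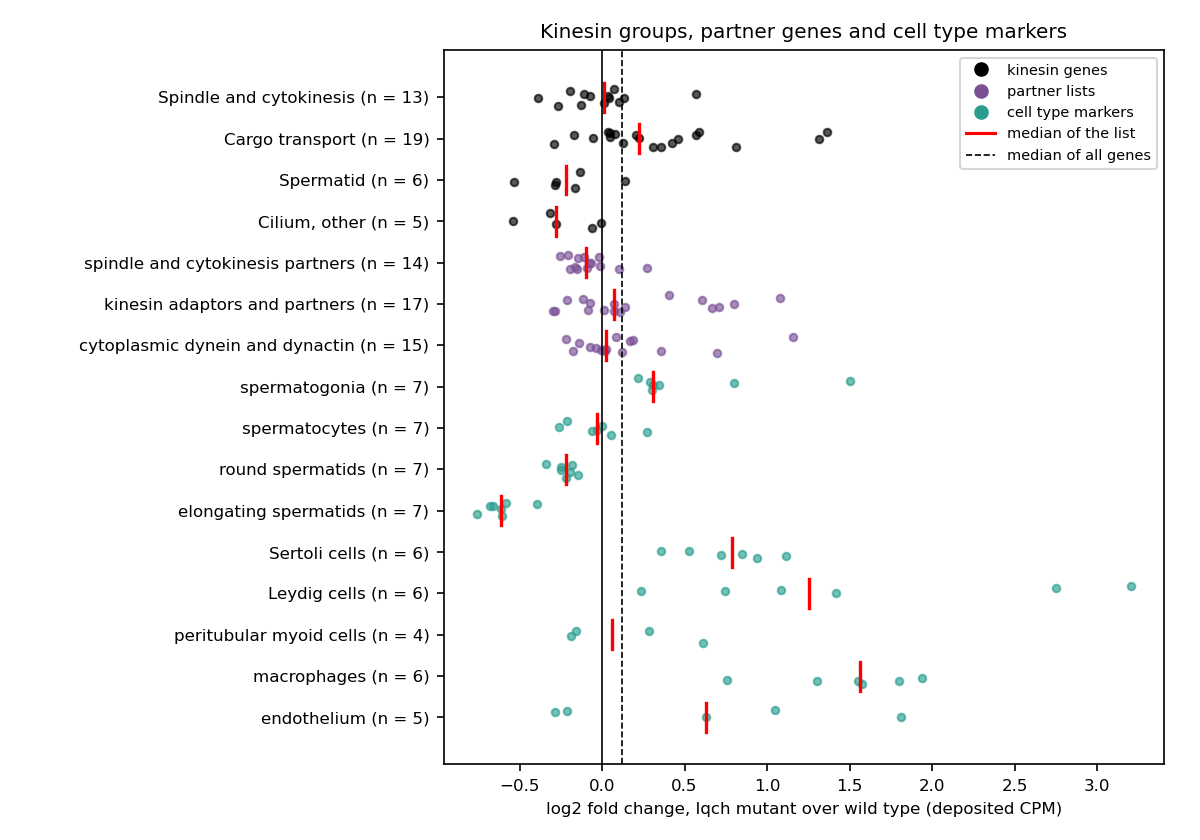
Log2 fold change (Iqch mutant over wild type, deposited CPM) of each gene in the 4 kinesin groups, the 3 partner lists and the 9 cell type marker lists, with the median of each list in red and that of all genes (0.12) as a dashed line. Medians run from -0.61 for elongating spermatid markers to 1.56 for macrophage markers, and the kinesin groups lie between -0.28 and 0.22.

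Markers of somatic cells moved beside the cargo transport genes. Among all genes 36.3% were called higher and 14.2% lower, and 27.0% and 25.1% after scaling. All 6 Sertoli cell markers, 5 of 6 Leydig cell markers and all 6 macrophage markers were called higher, with summed levels of 156 to 164 and 282 to 304 CPM, 997 to 1202 and 4214 to 4393 CPM, and 65.9 to 72.3 and 163 to 190 CPM in wild-type and mutant libraries. Of 5 endothelial markers 2 were called higher and of 4 peritubular myoid markers 1, with sums of 30.6 to 34.5 and 44.0 to 46.4 CPM, and 66.2 to 90.1 and 76.5 to 102 CPM. After scaling, Sertoli markers called higher were 4, the higher calls in the other 4 somatic lists were as many as before, and 1 endothelial marker was called lower. None of the markers was at 0. Fshr and Tagln were not analysed here. The summed level of the 19 cargo transport genes was 1116 to 1164 CPM in wild-type and 1250 to 1283 CPM in mutant libraries, and the part of somatic cells in this was not tested.

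The last 5 kinesins belong to the primary cilium, to signalling or to other roles, and were low. Kif19a acts in motile cilia, as some of the spermatid and flagellar kinesins do. The counts and medians of both groups therefore rest on its placement here. Kif19a (ENSMUSG00000010021), which limits the length of motile cilia, was at 26.9, 28.7, 25.4 and 32.1 CPM in wild-type and at 22.2, 24.0 and 21.7 CPM in mutant libraries, all mutants being lower (-0.31, standard error 0.08, limma FDR 0.0044). It was not called without wild type 2 (-0.31, limma FDR 0.013), mutant 1 (-0.30, limma FDR 0.017) or mutant 4 (-0.29, limma FDR 0.021). Kif7 (ENSMUSG00000050382), the regulator of Hedgehog signalling at the cilium tip, was at 4.94, 5.36, 5.63 and 5.54 CPM and at 5.37, 5.18 and 5.44 CPM, within the same range (-0.01, standard error 0.10, limma FDR 0.95). Kif24 (ENSMUSG00000028438), which keeps centrioles from forming cilia, was at 32.9, 35.9, 35.9 and 36.6 CPM and at 33.3, 34.2 and 33.8 CPM, and was called lower only after scaling (-0.20). Kif26a and Kif26b, kinesins whose heads do not hydrolyse ATP, were lower in every mutant but not called on the deposited CPM, at -0.28 (limma FDR 0.057) and -0.54 (limma FDR 0.013), and both were called after scaling.

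In 24 of the 43 genes the groups of libraries did not overlap, 15 with all mutants higher and 9 with all mutants lower, beside 62.3% of all genes tested. Of the 13784 protein-coding genes tested, 6648 had all mutants higher and 2395 all mutants lower. Of the 19 called genes, 15 were called in the same direction in every alternative tried, and these were Kif1a, Kif1b, Kif1c, Kif3c, Kif5b, Kif11, Kif13a, Kif21a and Klc1 (higher) and Kif2c, Kif9, Kif17, Kif21b, Kif27 and Klc3 (lower). Whether reads were counted by strand is not stated in the sources used here, and opposite-strand exons of other genes with values overlap 10% or more of the exons of 8 kinesin genes. In 3 more, Kif22, Kifc2 and Klc2, the overlapping gene was not analysed here. Klc3 shares 34.4% of its exon bases with Ercc2, which was called higher (0.22), Kif3c 34.6% with 1110002L01Rik, which was not called (0.10), and Kif20a 54.8% with Cdc23, called higher (0.40). Kif2a shares 41.1% with Dimt1, Kif7 24.0% with 9330171B17Rik, Klc1 14.1% with Xrcc3 and Kif4 11.1% with Pdzd11. How reads in these overlaps were assigned cannot be told from the values.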

How the data were processed

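The authors deposited a table of CPM, computed from featureCounts read counts per gene. Trimmomatic had removed adapters and poor bases, and Subread had aligned the reads to GRCm39. Genes below a read minimum were dropped before deposit. They left out 1 mutant library as an outlier. The annotation release is not given in the sources used here. Each library sums to the same total over 17127 genes, and 100% of its values were whole multiples of 1 step (tolerance 0.01 of a step). A single read is 0.0266 to 0.0312 CPM, and with no molecular identifiers this depth covers counting error only.

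Symbols and coordinates came from GENCODE M39 on GRCm39, which holds 17045 of the genes (99.5%). The test was lmFit and eBayes (trend on) of limma 3.58.1, run under R 4.3.3, on log2(CPM + 0.1), wild type against mutant, for genes that reached 2.2 CPM in 2 libraries of the same genotype (17126 kept, 1 left out). The script was tested on simulated data with as many genes raised as lowered and the rest unchanged. The shift in the median of all genes was therefore not part of that check. CPM per kb uses the union of a gene's exons. Tables and figures used Python 3.11.15, pandas 2.3.3, NumPy 2.4.6 and matplotlib 3.10.9.

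The kinesin genes and all lists were chosen with earlier results of these data known. All members could be named. Values of every library were given for the called members with an absolute change of 0.5 or more, the 3 most abundant per kb of each role, and Kif3a, Kif3b, Kif5b, Kif9, Kif17, Kifc1 and Klc3 (20 genes), and of each partner list the 2 largest called changes in each direction. Alternatives were a pseudocount of 1 or 0.01, no minimum or 5 CPM, median-of-ratios scaling, a block for the replicate number and leaving out each library. Count tests were planned but not run, since the unit stayed CPM.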

Additional observations from a re-analysis of the deposited data

Results flagged for a closer look

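In 2 of the 44 genes checked (Iqch and the 43 kinesin genes), the lowest of the 4 wild-type libraries stood apart from the other three by a gap above Dixon's critical value at the 95% level, which chance alone gives in about 1 of 20 groups. The gap was 0.874 of the range in Kif5c and 0.849 in Kif4. Wild type 1 held 32.1 CPM of Kif5c and wild type 2 to 4 held 36.8 to 37.5 CPM, and without that library its change was -0.22 (limma FDR 0.0060), which passed the threshold. Wild type 4 held 6.31 CPM of the X-linked Kif4 and wild type 1 to 3 held 7.25 to 7.42 CPM, and without that library its change was 0.08 (limma FDR 0.50). Reads of Kif4 may be shared with Kif4-ps, which was at 19.7, 23.5, 24.1 and 26.6 CPM in wild type 1 to 4. The 3 mutant libraries are too few for this check.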

How the results depend on the processing

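The choice that moved most results was scaling by size factors. It changed the count of kinesin genes called lower from 7 to 17, with 2 cargo transport, 4 cilium and other, and 6 spindle kinesins called lower, and the count of all genes called lower from 2428 to 4294. It turned the sign of 11 kinesin genes, none of them called under either scaling, to -0.10 for Kif16b, -0.088 for Kif5a, -0.087 for Klc2, -0.058 for Kif3a, -0.0070 for Kifc3, -0.12 for Kif18a, -0.10 for Kif22, -0.093 for Kif14, -0.063 for Kif20a, -0.033 for Kifc1 and -0.0025 for Kif4. Both pseudocounts and the absence of a minimum left all 43 genes on their side of the threshold, as did a minimum of 5 CPM for the 42 genes it kept. As single libraries were left out, the number of genes called lower ran from 1 to 2 for cargo transport kinesins (2 without wild type 1), from 0 to 1 for cilium and other kinesins (0 without wild type 2, mutant 1 or mutant 4) and from 1 to 2 for spindle kinesins (2 without wild type 1, wild type 4 or mutant 2). Signs that turned with a library left out belonged to genes not called, Kif16b (-0.0093 to 0.068), Kif5a (-0.013 to 0.079), Kif7 (-0.047 to 0.015), Kif18a (-0.048 to 0.061) and Kif14 (-0.0068 to 0.089). The cause was not tested.

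Deviations from the group means of libraries with the same replicate number correlated at 0.03, 0.01 and -0.10 for numbers 1, 2 and 4. With so few libraries these values cannot show whether samples of a number share a litter or batch. Of the 3 mutants, mutant 1 correlated best with its own number. With the replicate number as a block, 2 spindle kinesins were called lower (Kif15 at -0.27 and Kif2c), Kif2b was called at -0.17, Klc4 was not called at 0.21, and Kif7 was at 0.015. Wild type 3 has no partner of its number, so it adds nothing to these values. The edgeR and DESeq2 fits planned on recovered reads were not run. The median standard error of the kinesin genes was 0.06 on the log2 scale (0.08 for all genes), and the part of depth in it was not tested.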

Other observations

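Cytoplasmic dynein moves cargo against the direction of most kinesins. Of 15 genes of cytoplasmic dynein and dynactin 3 were called higher and 1 lower, beside 36.3% and 14.2% of all genes. Their median log2 fold change was 0.03. After scaling 2 were higher and 5 lower, beside 27.0% and 25.1% of all genes. The 5 lower ones were Dync1h1, Dctn2, Dynlrb2, Dynll1 and Dynll2. Dynlrb1, a light chain of the widely used form, went from 11.2 ± 0.611 to 25.2 ± 2.00 CPM (1.16, standard error 0.08, limma FDR 9.7e-08). Dync1li1, a light intermediate chain that binds adaptors, went from 11.2 ± 0.685 to 18.4 ± 2.21 CPM (0.70, standard error 0.09, limma FDR 2.9e-05). Dynll1, a light chain, fell from 350.2 ± 15.1 to 301 ± 11.7 CPM (-0.22, standard error 0.04, limma FDR 9.2e-04). Dctn6, a dynactin subunit, was called higher at 0.36, but not after scaling, nor without wild type 1, mutant 2 or mutant 4 (range 0.26 to 0.49). The heavy chain Dync1h1, at 811 ± 35.2 and 772 ± 12.8 CPM, was not called before scaling (-0.07, standard error 0.04, limma FDR 0.15).

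Among kinesin-like genes outside the rule, the antisense lncRNA Kif16bos had 7.92 ± 1.83 and 5.18 ± 1.72 CPM in the 2 genotypes and was not called (-0.62, standard error 0.21, limma FDR 0.023), and Kif4-ps was at 23.5 ± 2.87 and 19.4 ± 1.13 CPM (-0.27, standard error 0.09, limma FDR 0.024). Both were called lower after scaling.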
